A study of Mus musculus with 203 samples.

Results

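The heavy chain variable gene repertoire was described here as 96 Ighv genes, each a germline segment that can supply the variable region of an antibody heavy chain. They were chosen by symbol and by level: every gene whose symbol starts with Ighv and whose estimated counts, summed over all libraries, reached 1000. They were taken from 43346 gene identifiers in the table, which hold 79 more Ighv genes under that minimum. Of these 79 Ighv genes, 32 were at 0 in every library, and the 96 members held 99.7% of all Ighv counts. Just inside the minimum were Ighv1-36 with 1021.9 counts, Ighv1-61 with 1043.7 and Ighv5-1 with 1094.8. Just outside it were Ighv1-62-1 with 835.09, Ighv12-1 with 767 and Ighv1-71 with 736.11.

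The libraries are bulk RNA-seq of total RNA from the airway and the parenchyma of female Balb/C mice aged 18 to 20 weeks. Mice received house dust mite extract (HDM) or phosphate buffered saline (PBS) intranasally on 5 days per week for 3 weeks, which gives the 3-week groups (HDM, 10 airway and 10 parenchyma libraries; PBS, 11 airway and 12 parenchyma libraries). In the 11-week model HDM was continued 3 times per week from week 4 to week 11, with exposure to cigarette smoke (CS) or normal air (AIR) for 8 weeks and with or without dexamethasone (DEX), a synthetic glucocorticoid, during week 11. This gives PBS.AIR, PBS.AIR.DEX, PBS.CS, PBS.CS.DEX, HDM.AIR, HDM.AIR.DEX, HDM.CS and HDM.CS.DEX, each with 10 airway and 10 parenchyma libraries, and 20 groups in all. The labels do not say which libraries came from the same mouse, nor that each came from a separate one, so p-values measure only the spread between these libraries. Total counts ran from 13003087 to 40240680 per library, and counts of members from 96 to 150993.

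An antibody heavy chain is made when a developing B cell joins 1 Ighv segment to a diversity and a joining segment upstream of the constant genes. Each B cell carries 1 productive heavy chain rearrangement, so the mix of Ighv transcripts in a tissue reads out which rearranged cells are there and how much antibody RNA each makes. Plasma cells, the secreting end stage of the lineage, hold far more antibody RNA than resting B cells, and a clone that expands raises the share of its own segment. Usage share is used below for the percent of a library's member counts that fall on 1 member. The effective number is the exponential of Shannon's index of these shares, that is, the number of equally used members with the same diversity. Overlap is the sum, over members, of the smaller of the shares in 2 libraries, so that identical usage gives 100%.

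All 96 members lay on the minus strand of chromosome 12 between bases 113572927 and 116000461 of GRCm38 (mm10). They stood from 143.09 to 2570 kb away from the Ighj joining genes. By the GENCODE M21 annotation 84 were V genes and 12 were pseudogenes, and they fell into 13 families, of which Ighv1 held 52 members. Members resemble each other closely: 52 of the 96 were at least 95% identical over at least 250 aligned bases to another Ighv gene, with a median identity to the nearest gene of 95.45%, so reads can be split between near copies. The reference is the C57BL/6J locus, while the mice were Balb/C, whose Igh locus is a different haplotype. A member is therefore the reference gene that the reads matched best, and this bears on every share below. The last 300 bases of the reference transcript are shown for 6 members, the 4 with the largest mean share and the 2 others that led a library with at least 20% of its member counts. Capitals mark a TGT cysteine codon directly after a tyrosine or phenylalanine codon (TAT, TAC, TTT or TTC), searched for on the coding strand within the last 30 bases as TGT or TGC. It was found in 83 of the 84 V gene members, in 10 of the 12 pseudogene members and in 82.5% of all Ighv genes of the annotation.
Ighv2-9, chr12:113879096-113879541: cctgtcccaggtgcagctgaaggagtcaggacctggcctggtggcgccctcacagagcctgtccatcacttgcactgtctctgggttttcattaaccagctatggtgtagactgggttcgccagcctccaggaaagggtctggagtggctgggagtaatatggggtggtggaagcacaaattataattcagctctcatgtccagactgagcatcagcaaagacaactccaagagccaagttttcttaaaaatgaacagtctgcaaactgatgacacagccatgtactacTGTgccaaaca
Ighv9-3, chr12:114140692-114141122: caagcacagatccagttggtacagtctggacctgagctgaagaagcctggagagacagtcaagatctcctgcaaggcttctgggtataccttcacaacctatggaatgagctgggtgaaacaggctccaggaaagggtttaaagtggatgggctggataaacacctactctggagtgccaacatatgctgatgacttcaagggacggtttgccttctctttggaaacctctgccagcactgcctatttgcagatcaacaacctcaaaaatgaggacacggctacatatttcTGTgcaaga
Ighv5-6, chr12:113625506-113625956: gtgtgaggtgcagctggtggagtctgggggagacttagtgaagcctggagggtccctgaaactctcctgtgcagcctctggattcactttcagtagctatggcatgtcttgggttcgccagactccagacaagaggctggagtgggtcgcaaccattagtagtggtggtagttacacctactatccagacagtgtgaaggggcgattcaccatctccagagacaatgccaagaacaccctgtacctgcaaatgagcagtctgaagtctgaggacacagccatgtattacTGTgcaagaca
Ighv1-14, chr12:114646572-114647056: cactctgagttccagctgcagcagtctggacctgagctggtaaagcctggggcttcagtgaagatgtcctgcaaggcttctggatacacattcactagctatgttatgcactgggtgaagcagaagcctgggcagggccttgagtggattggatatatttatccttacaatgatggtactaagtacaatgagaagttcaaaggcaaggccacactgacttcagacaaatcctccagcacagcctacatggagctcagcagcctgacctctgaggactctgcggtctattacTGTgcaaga
Ighv1-84, chr12:115980702-115981134: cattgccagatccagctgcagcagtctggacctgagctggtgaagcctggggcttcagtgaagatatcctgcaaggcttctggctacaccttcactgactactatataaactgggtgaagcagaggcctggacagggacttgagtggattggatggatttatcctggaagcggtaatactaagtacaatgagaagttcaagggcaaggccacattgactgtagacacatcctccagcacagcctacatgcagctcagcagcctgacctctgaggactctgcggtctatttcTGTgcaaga
Ighv7-3, chr12:114153180-114153644: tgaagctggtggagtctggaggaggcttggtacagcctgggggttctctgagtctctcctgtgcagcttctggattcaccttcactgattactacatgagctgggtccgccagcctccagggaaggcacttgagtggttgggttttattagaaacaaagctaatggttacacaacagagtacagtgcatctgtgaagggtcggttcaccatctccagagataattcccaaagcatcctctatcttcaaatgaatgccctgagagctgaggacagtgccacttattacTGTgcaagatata

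Among these 6 the identity of any pair ran from 57.06 to 88.32%, with Ighv1-14 and Ighv1-84, both of the Ighv1 family, the closest. Ighv1-14 is annotated as a pseudogene in the reference, yet it ranked 4th of the 96 members by mean share. The coordinates give the whole gene on the minus strand.

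Before any comparison, 3 control libraries were found whose usage overlapped closely with that of a library of another treatment. The library coded X21 (3-week PBS airway) had a summed member level of 507 CPM (counts scaled to a fixed library size, adjusted by the TMM method), X181 (3-week PBS airway) 175.2 CPM and X126 (11-week PBS.AIR parenchyma) 83.4 CPM, against medians of 42.1, 42.1 and 14.6 CPM over the other libraries of their groups. Their usage overlapped by 87.7% (X21), 90.2% (X181) and 91.2% (X126) with that of 1 HDM.CS library each, coded X37, X157 and X118. Their highest overlap within their own group was 69.4%, 72.4% and 67.97%. The kappa light chain variable genes gave the same partner, with overlaps of 88.9%, 88.8% and 93.2%. Ighg1, the constant gene of IgG1, stood at 4372, 1131 and 453 CPM in these libraries and at 8587, 12440 and 3999 CPM in the partners, against group medians of 91.1, 91.1 and 7.04 CPM over the rest. The usage of 9 of the 11 3-week PBS airway libraries was closest, among all other airway libraries, to an 11-week HDM.CS library, and that of none of the 11 to a library of its own group. In the other airway groups such own-group matches ran from 0 of 10 (HDM.AIR.DEX, PBS.AIR.DEX and PBS.CS.DEX) to 8 of 10 (3-week HDM), so their absence was not particular to this group. Outside the antibody genes, Mmp12 stood at 69.6 (X21), 116.5 (X181) and 114.1 CPM (X126), against 38.8, 38.8 and 31.8 CPM over the rest. In the partners it stood at 715, 962 and 838 CPM. Chil4, Clca1 and Cyp1a1 each lay above the median of the rest in some of X21, X181 and X126 and below it in others. How X21, X181, X126 and the other 3-week PBS airway libraries came to resemble HDM.CS libraries was not tested. Counts of calls and of members without overlap are given with and without X21, X126 and X181 where these libraries bear on them, a choice made after seeing the data. Without X21 and X181 the summed level of the 9 remaining 3-week PBS airway libraries was 12.8 CPM at the lowest, 41.995 at the median and 160.4 at the highest. The level of X181 thus lay close to that of another library of its group. Without X126 that of the 9 remaining PBS.AIR parenchyma libraries was 7.72, 14.6 and 23.4 CPM.

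Usage was spread over many members with a gradual decline. Ighv2-9 and Ighv9-3 both had a mean share of 5.05% over all libraries, followed by Ighv5-6 (4.41%), the pseudogene Ighv1-14 (4.25%), Ighv5-4 (3.68%), Ighv2-6 (3.24%), Ighv2-2 (3.14%), Ighv3-6 (3.07%), Ighv1-4 (2.62%) and Ighv14-3 (2.58%). Together these 10, chosen by mean share, took 20.8% of a library's member counts at the lowest, 37.5% at the median and 52.4% at the highest. Shares were not divided by length; members span 345 to 480 exonic bases, and per length 9 of the 10 stayed among the first 10. Only 6 members had a count in every library, and 28 members led at least 1 library. Ighv9-3 led most often, in 41 libraries. By family, Ighv1 took 34.2% on average, Ighv2 16.6%, Ighv5 15.7%, Ighv9 7.62%, Ighv14 6.68% and Ighv3 5.58%. The 12 pseudogene members took 3.51% at the lowest, 8.13% at the median and 30.4% at the highest.

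Position along the locus went with usage. The 48 members nearest Ighj reach to 1227.5 kb from it, and they held all 10 leading members, of which Ighv2-2, at 158.43 kb, lay nearest and the pseudogene Ighv1-14, at 1216.74 kb, farthest. Their summed share had a group median of 70.98% at the lowest (11-week HDM.CS.DEX parenchyma) and 79.5% at the highest (11-week PBS.AIR.DEX airway). The lowest single libraries were a 3-week HDM airway library (53.6%) and a 3-week HDM parenchyma library (52.9%). Those are X183 and X184, described below, in which the far member Ighv1-84 led. The 48 members farther from Ighj were all of the Ighv1 and Ighv8 families, so position went along with family. Their separate parts in usage were not tested.

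**Figure D1:**
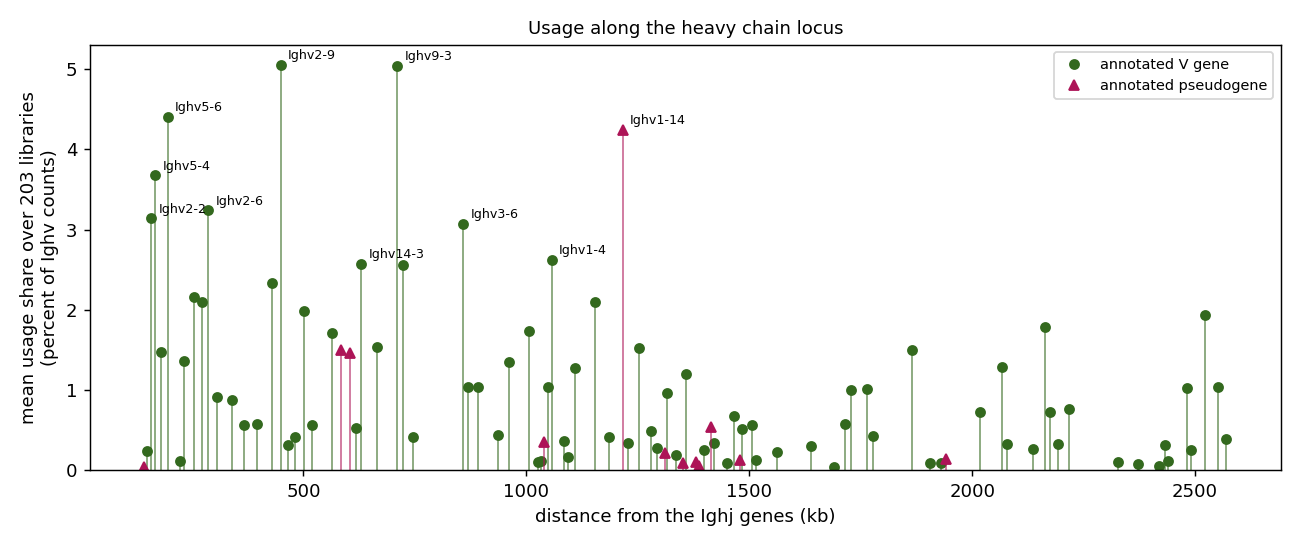
Mean usage share of each of the 96 members (y axis, percent of a library's member counts) against its distance from the Ighj genes (x axis, kb). The 10 leading members all lie within the nearer 48, which reach to 1227.5 kb, and no member exceeds a mean share of 5.05%.

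The first question was how HDM exposure changed the level of the members. After 3 weeks of PBS the summed level in the airway was 12.8 CPM at the lowest, 42.2 at the median and 507 at the highest, and after 3 weeks of HDM it was 396, 696 and 1364 CPM. In the parenchyma the PBS libraries ran from 4.36 through 13.8 to 29.4 CPM and the HDM libraries from 202.3 through 378 to 826 CPM. The medians stood 16.5 and 27.5 times apart. In the parenchyma the sums of the groups did not overlap, and in the airway they overlapped only through X21, since the other PBS libraries reached at most 175.2 CPM. In bulk RNA a change in the number of antibody-making cells and a change in antibody RNA per cell cannot be told apart, here or in any comparison below.

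In limma-voom fits across all tested genes, with Benjamini-Hochberg adjustment (adjusted p under 0.05 and a log2 fold change of at least 1 in size), 83 of the 84 members tested at 3 weeks were higher with HDM in the airway, where 12.1% of all tested genes were higher. In the parenchyma 83 of 84 were higher against a background of 14.5%. Median log2 fold changes of the members were 3.32 and 4.07, against -0.07 and -0.13 over all genes. These counts lean on the choice of members: 95.8% of member counts came from the 100 HDM libraries, and all 96 members had most of their counts there, so a gene could enter the list because it was high under HDM. Of the 60 members that reach the same mean of 4.926 counts per library over the PBS libraries alone, 60 were called higher in each of the 4 HDM comparisons without smoke. Those PBS libraries include X21, X126 and X181, so a member could still reach that mean through usage like that of HDM.CS libraries. Without X21, X126 and X181, 82 of the 82 members then tested were higher in both compartments. Every HDM library exceeded every PBS library for 5 of 84 members in the airway (background 11.7%) and for 62 of 84 in the parenchyma (background 20.3%). Without X21 and X181 the airway count was 33 of 84, and the background 12.7%.

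The member outside the call in both compartments was Ighv1-81, with a log2 fold change of 1.09 in the airway (SE 0.68) and 1.26 in the parenchyma (SE 0.85); it was singled out after its values were seen. The named members with the largest 3-week changes were of the Ighv2 family. Ighv2-6 stood at 0.156, 0.778 and 5.09 CPM (lowest, median and highest) in PBS airway and at 29.2, 60.3 and 232 CPM in HDM airway, with no overlap, a log2 fold change of 6.01 (SE 0.69) and an adjusted p of 3.6e-10. In the parenchyma it went from 0.0454, 0.376 and 0.981 CPM to 18.5, 26.6 and 121.1 CPM, with a log2 fold change of 6.48 (SE 1.02). Ighv2-9-1, a member of the same family, rose by 6.01 (SE 0.77) in the airway and by 6.30 (SE 0.95) in the parenchyma on the log2 scale. Ighv14-1 had the smallest adjusted p in the parenchyma, 2.7e-09, with 0.0547, 0.274 and 0.600 CPM under PBS and 5.55, 8.59 and 12.3 CPM under HDM. Its log2 fold change was 4.79 (SE 0.61) there and 3.504 (SE 0.42) in the airway. Ighv1-2, Ighv1-53 and Ighv8-11 were the others with the smallest adjusted p, and they rose by 5.02 (Ighv1-2, airway), 5.20 (Ighv1-53, parenchyma) and 4.08 (Ighv8-11, parenchyma). Ighv1-62-2 rose in the airway by 5.20 (SE 1.17), with 0, 0.144 and 30.995 CPM under PBS and 0.784, 14.4 and 25.8 CPM under HDM, so its groups overlapped. Its highest PBS value was that of X21, and without X21 and X181 the PBS libraries ran from 0 to 0.65 CPM. With DESeq2 its log2 fold change was 1.99 and the adjusted p 0.05, which ends the call. Ighv10-1 rose in the parenchyma by 6.17 (SE 1.80), with HDM libraries from 0.607 to 65.8 CPM, the widest range of these.

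**Figure D2:**
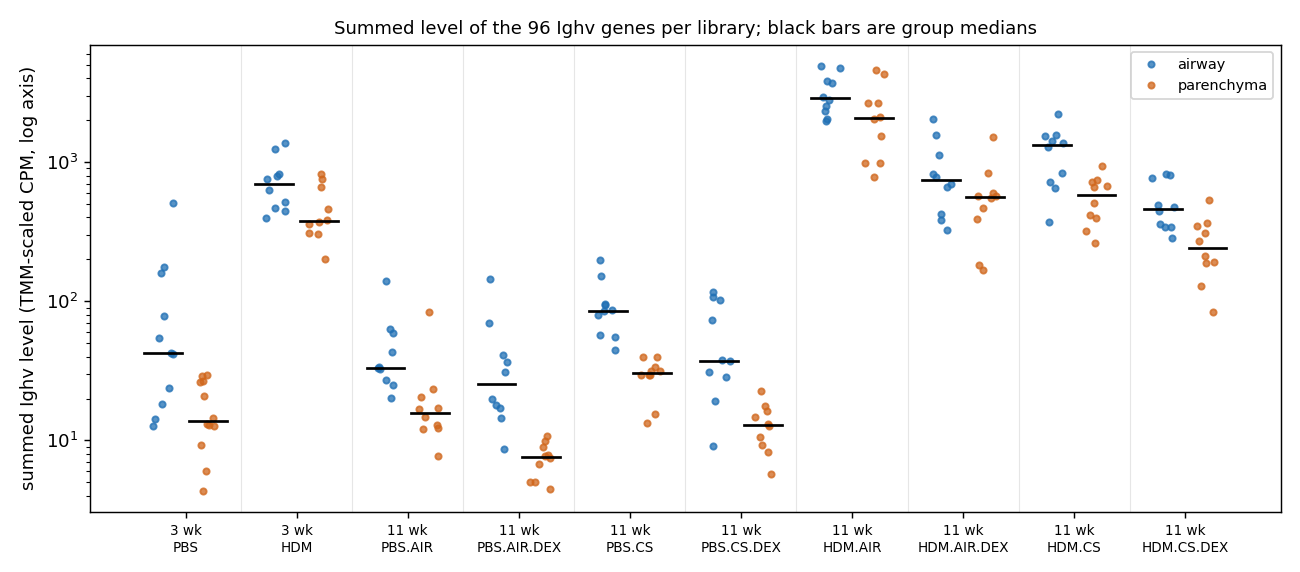
Summed level of the 96 members in each library (y axis, CPM on a log scale) for the 20 groups (x axis), with 1 point per library and the group median as a bar. HDM groups lie above their PBS counterparts, from 84.1 to 4910 CPM against 4.36 to 507 CPM, and X21 is the one 3-week PBS airway library inside the range of its HDM group.

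By 11 weeks the levels under HDM.AIR were higher still. The airway sums were 20.1, 33.4 and 138.96 CPM in PBS.AIR and 1966, 2866 and 4910 CPM in HDM.AIR, a ratio of medians of 85.9. The parenchyma sums were 7.72, 15.7 and 83.4 CPM in PBS.AIR and 786, 2079 and 4562 CPM in HDM.AIR, a ratio of 132.08. The groups did not overlap in either compartment. All 96 members were called higher in the airway (background 10.6%) and all 96 in the parenchyma (background 13.0%), with median log2 fold changes of 6.10 and 6.29. Every HDM.AIR library exceeded every PBS.AIR library for 80 of 96 members in the airway (background 10.5%) and 80 of 96 in the parenchyma (background 11.8%). Without X126 the parenchyma count was 87 of 96, with a background of 12.3%.

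Far members led the 11-week changes in size. Ighv1-82, chosen as the largest, stood at 0.0976, 0.209 and 0.424 CPM in PBS.AIR airway and at 29.4, 117.7 and 167.9 CPM in HDM.AIR airway. Its log2 fold change was 8.80 (SE 1.07) in the airway and 8.44 (SE 1.18) in the parenchyma. Ighv1-81, not called at 3 weeks, was second, with 8.48 (SE 1.21) in the airway and 8.20 (SE 1.30) in the parenchyma. Its level in PBS.AIR reached at most 6 counts in an airway library and 5 in a parenchyma library, so these folds depend on the small value that the fit adds to counts. The same holds for Ighv1-77 in the parenchyma, which had at most 3 counts in a PBS.AIR library and 2.87 to 23.1 CPM under HDM.AIR. Ighv1-63 rose by 7.89 (SE 1.12) in the airway. Ighv2-9, Ighv14-4, Ighv5-4 (airway) and Ighv1-19 (parenchyma) were named for the smallest adjusted p. Ighv2-9 went from 1.21, 2.63 and 8.13 CPM to 75.8, 106.01 and 222 CPM in the airway, a log2 fold change of 5.43 (SE 0.44) with an adjusted p of 1.4e-22, and it rose by 7.03 (SE 0.71) in the parenchyma. Ighv14-4 rose by 7.33 and 7.55, Ighv5-4 by 6.32 (airway) and Ighv1-19 by 6.30 (parenchyma).

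In the airway Ighv11-2 and Ighv12-3 changed least at 11 weeks. They are known as segments preferred by B-1 cells, the innate-like B cells that make natural antibodies to phosphatidylcholine. Both were singled out after their values were seen. Ighv11-2 rose by 1.06 (SE 0.46, adjusted p 0.039) in the 11-week airway and by 3.56 (SE 0.74) in the parenchyma. Ighv12-3 rose by 2.20 (SE 0.45) and 3.68 (SE 0.66). As shares, Ighv11-2 was 0.656, 1.97 and 3.80% of member counts in PBS.AIR airway and 0.0139, 0.0564 and 0.132% in HDM.AIR airway, with no overlap. Ighv12-3 was 0.242, 0.801 and 3.06% in PBS.AIR and 0.0108, 0.0554 and 0.142% in HDM.AIR. Thus the HDM.AIR libraries had higher CPM for both members and a smaller fraction of their repertoire on them. At 3 weeks Ighv11-2 rose by 3.43 (SE 0.69) in the airway and 3.90 (SE 1.00) in the parenchyma, and Ighv12-3 by 3.09 and 3.85, against member medians of 3.32 and 4.07.

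Few members were called for smoke alone. The sums were 44.6, 85.7 and 197.2 CPM in PBS.CS airway against 20.1, 33.4 and 138.96 CPM in PBS.AIR, and 13.4, 30.6 and 39.5 CPM against 7.72, 15.7 and 83.4 CPM in the parenchyma. One airway member was called higher, Ighv1-28, with a log2 fold change of 2.36 (SE 0.84) and an adjusted p of 0.044, against a background of 1.73% of genes. Ighv1-28 had a median of 0 CPM in PBS.AIR and of 0.116 CPM in PBS.CS, so the call rests on few counts. The call was lost in 1 fit of all libraries (adjusted p 0.058) and with sample quality weights (adjusted p 0.069), with 0 members called in both. Log2 fold changes were above 0 for 87 of 96 members in the airway, with a median of 0.90, and for 76 of 96 in the parenchyma, with a median of 0.36, against medians of 0.00 over all genes. In the parenchyma no member was called by limma-voom, 0 had an unadjusted p under 0.05, edgeR called 0 and DESeq2 7. In the airway 7 members had an unadjusted p under 0.05, the edgeR quasi-likelihood test called 16 and DESeq2 22.

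Within smoke-exposed mice HDM again raised most members. HDM.CS airway sums were 372, 1324 and 2230 CPM and HDM.CS parenchyma sums 260, 583 and 936 CPM, all above the PBS.CS libraries. In the airway 87 of 96 members were higher than in PBS.CS (background 3.90%), and in the parenchyma 86 of 96 (background 2.71%). Ighv8-8 rose in both, by 5.05 (SE 0.62) in the airway and 5.86 (SE 0.88) in the parenchyma, from a median of 0.545 to 18.0 CPM and of 0.184 to 11.1 CPM. Ighv14-1 rose by 4.90 and 5.06, Ighv14-4 by 4.80 and 4.46, and Ighv2-9 by 3.48 and 4.27. Ighv5-15 and Ighv1-82 rose in the airway by 5.21 and 5.18, and Ighv1-63 and Ighv14-3 in the parenchyma by 5.43 and 5.21. Ighv11-2 (0.76, SE 0.50) and Ighv12-3 (0.80, SE 0.42) were among the 9 airway members not called.

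Under HDM, smoke-exposed mice had lower levels than air-exposed mice. The median sum was 1324 CPM in HDM.CS airway against 2866 CPM in HDM.AIR, and 583 against 2079 CPM in the parenchyma. In the airway 85 of 96 members were lower in HDM.CS (background 1.97%) and in the parenchyma 82 of 96 (background 3.46%), with median log2 fold changes of -1.54 and -1.91. DESeq2 called 47 in the airway. The sums of the groups overlapped in both compartments. All 12 pseudogene members were lower in the airway, as were 41 of the 48 members nearest Ighj and 44 of the 48 others. Ighv1-47 fell by 3.72 (SE 0.71) in the airway, from 0.304, 12.1 and 59.8 CPM in HDM.AIR to 0, 1.13 and 6.77 CPM in HDM.CS, and by 3.09 (SE 0.95) in the parenchyma. Ighv1-78 fell by 2.87 (SE 0.44) in the airway and Ighv2-6-8 by 2.73 (SE 0.47) in the parenchyma. The members with the smallest airway differences were Ighv11-2 (-0.57, SE 0.43), Ighv12-3 (-0.66, SE 0.36) and Ighv2-6 (-0.68, SE 0.37), none of them called. Beside the members, 2 of 15 plasma cell markers, 0 of 14 B cell markers, 5 of 8 germinal centre markers, 3 of 7 lymph node stroma and venule markers and 4 of 8 tested constant genes were lower in the airway. In the parenchyma these counts were 7, 6, 5, 3 and 6. Of 9 T cell markers 0 were called in either compartment, and 1 of 6 macrophage markers was higher in each. The summed plasma cell list had airway medians of 10770 CPM in HDM.AIR and 4845 CPM in HDM.CS, and the B cell list 770 and 483 CPM. Their part in the members' difference was not tested.

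The interaction of HDM with smoke was tested directly, as the HDM effect in smoke minus the HDM effect in air. It was negative at an adjusted p under 0.05 for 41 of 96 members in the airway (background 11.4%) and for 18 of 96 in the parenchyma (background 18.7%). In the parenchyma the members were thus called about as often as all genes. The parenchyma count depended on the method, at 54 with edgeR, 64 with DESeq2, 30 without a filter on low counts and 0 with a filter of 10 CPM, which also gave 0 in the airway. The median interaction over the members was -2.51 and -2.34. Ighv5-2, at 148.67 kb from Ighj and known as a segment rearranged early in B cell development, had -4.34 (SE 0.96, adjusted p 3.8e-04) in the airway and -3.97 (SE 1.13) in the parenchyma. Ighv1-28 had -4.05 (SE 0.90) in the airway and the pseudogene Ighv5-1 -2.87 (SE 0.92) in the parenchyma. Control levels were low: Ighv5-2 had airway medians of 0.0885 CPM in PBS.AIR and 0.206 CPM in PBS.CS, so these interactions lean on few control counts. These comparisons share libraries with those above.

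Dexamethasone lowered most members under HDM.AIR. The airway sums were 324, 738 and 2030 CPM in HDM.AIR.DEX against 1966, 2866 and 4910 CPM without it, and the parenchyma sums 166.7, 560 and 1516 CPM against 786, 2079 and 4562 CPM. In the airway 92 of 96 members were lower (background 5.07%) and in the parenchyma 85 of 96 (background 5.40%), with median log2 fold changes of -2.19 and -2.16. The airway members not called were Ighv11-2, Ighv2-6, Ighv12-3 and Ighv1-23, named because they were the 4 exceptions. Ighv2-6 differed by -0.67 (SE 0.37) in the airway and by -0.52 (SE 0.42) in the parenchyma, where it was also not called. Ighv1-84 fell by 3.37 (SE 0.57) in the airway, from 5.15, 15.6 and 135.1 CPM to 0.288, 2.95 and 11.7 CPM, and by 3.55 (SE 0.77) in the parenchyma. Ighv1-50 fell by 3.57 (SE 0.57) in the airway and Ighv1-74 by 3.25 (SE 0.53) in the parenchyma. Ighv9-3 fell by 2.22 and 2.27, and Ighv2-9 by 1.70 and 1.74. Of the other lists, 8 of 15 plasma cell markers, 11 of 14 B cell markers, 5 of 8 germinal centre markers, 1 of 9 T cell markers, 4 of 7 lymph node stroma and venule markers and 7 of 8 tested constant genes were lower with dexamethasone in the airway. In the parenchyma these counts were 6, 11, 5, 3, 4 and 8. None of the macrophage, airway tissue and parenchyma tissue markers was called in either compartment. The summed plasma cell list had airway medians of 10770 CPM without and 3674 CPM with dexamethasone, the B cell list 770 and 343 CPM and the parenchyma tissue list 10736 and 18457 CPM. Their part in the members' decrease was not tested.

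Dexamethasone was also compared within HDM.CS mice. The sums were 285, 462 and 824 CPM in HDM.CS.DEX airway and 84.1, 241 and 535 CPM in parenchyma. In the airway 38 of 96 members were lower than in HDM.CS (background 1.93%) and in the parenchyma 18 of 96 (background 1.92%), with median log2 fold changes of -1.12 and -1.14. These counts moved with the method: in the airway they were 19 with DESeq2, 21 with a filter of 10 CPM and 59 with sample quality weights, and in the parenchyma 4 with that filter, 11 without a filter and 41 with the weights. B cell markers were lower for 10 and 11 of 14, plasma cell markers for 3 and 4 of 15, T cell markers for 1 and 6 of 9 and constant genes for 2 of 8 in both, and their part was not tested. Whether the dexamethasone effect differs between HDM.AIR and HDM.CS mice was not tested. By family, the calls in the airway included 4 of 4 Ighv14 members, 2 of 3 Ighv7, 3 of 5 Ighv8, 4 of 9 Ighv5, 20 of 52 Ighv1 and 1 of 8 Ighv2 members. Ighv7-2 and Ighv7-3 had the largest decreases in both compartments. Ighv7-3 fell by 2.89 (SE 0.65, adjusted p 8.1e-04) in the airway, from 3.84, 21.9 and 89.7 CPM to 0.214, 3.35 and 11.1 CPM, and by 3.20 (SE 0.90) in the parenchyma. Ighv7-2 fell by 2.95 (SE 0.86) and 3.76 (SE 1.21). With the filter of 10 CPM Ighv7-2 lost its call in both compartments and Ighv7-3 in the parenchyma. Ighv7-3 also fell under HDM.AIR with dexamethasone, by 2.83 (SE 0.53) in the airway and 3.05 (SE 0.62) in the parenchyma. Its share of member counts was 0.59, 2.43 and 6.59% in HDM.CS airway and 0.06, 0.764 and 1.45% in HDM.CS.DEX airway. The highest HDM.CS.DEX share thus lay below the HDM.CS median.

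In mice without HDM no member was called under dexamethasone by limma-voom. PBS.AIR.DEX gave 0 calls in both compartments, with 1 unadjusted p under 0.05 in each, while edgeR called 1 (airway) and 7 (parenchyma) and DESeq2 1 and 35. PBS.CS.DEX gave 0 calls in both, with 6 and 2 unadjusted p under 0.05, while edgeR called 9 and 8 and DESeq2 15 and 20. The sums were 8.68, 25.4 and 144.2 CPM in PBS.AIR.DEX airway, 9.12, 37.4 and 117.4 CPM in PBS.CS.DEX airway, 4.47, 7.58 and 10.8 CPM in PBS.AIR.DEX parenchyma and 5.76, 12.9 and 22.5 CPM in PBS.CS.DEX parenchyma. Of the members 83 of 96 had a negative log2 fold change in PBS.AIR.DEX airway and 92 of 96 in each of the other 3.

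Airway and parenchyma were compared within treatments. Among 3-week PBS libraries 13 of 84 members were higher in the airway (background 10.0%), led by Ighv1-53 (2.77, SE 0.74) and Ighv2-6-8 (2.40, SE 1.02). Without X21, X126 and X181 there was 1 such member, and Ighv2-6-8 had an adjusted p of 0.12. Among 3-week HDM libraries 10 of 84 were higher in the airway (background 8.00%), led by the B-1 cell segments Ighv11-2 (1.84, SE 0.56) and Ighv12-3 (1.48, SE 0.52). In PBS.AIR 4 of 96 were higher in the airway (background 13.4%), Ighv11-2 (3.01, SE 0.76), Ighv9-4 (2.32, SE 1.00), Ighv12-3 (2.27, SE 0.71) and Ighv2-9 (2.10, SE 0.79). Ighv11-2 stood there at 0.196, 0.751 and 3.65 CPM in the airway and at 0, 0.0791 and 0.166 CPM in the parenchyma, with no overlap. In HDM.AIR 4 of 96 were higher in the airway (background 2.99%), Ighv1-47 (1.52, SE 0.50), Ighv1-62 (1.22, SE 0.34), Ighv1-85 (1.15, SE 0.38) and Ighv1-81 (1.04, SE 0.32). These counts moved with the method: edgeR and DESeq2 called 75 and 82 for 3-week PBS, 4 and 2 for 3-week HDM, 19 and 30 for PBS.AIR, and 0 and 0 for HDM.AIR, where Ighv1-47 and Ighv1-62 lost their call. With libraries of neighbouring codes as a block, described below, the counts were 23 for 3-week PBS and 10 for HDM.AIR. The HDM effect at 3 weeks differed between compartments for 1 of 84 members (background 6.43%): Ighv1-53 rose less in the airway, by -2.33 (SE 0.79, adjusted p 0.037), and without X21, X126 and X181 no member was called. All libraries in 1 fit also called 0, while edgeR called 14 and DESeq2 30.

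Diversity moved less than level. In the airway the effective number was 38.7, 45.8 and 53.02 (lowest, median and highest) in 3-week PBS and 31.5, 39.99 and 47.6 in 3-week HDM. In the parenchyma it was 31.3, 42.98 and 49.5 in PBS and 32.4, 41.1 and 47.8 in HDM. Without X21 and X181 the PBS airway values were 38.7, 45.6 and 53.02. Since the effective number falls with shallow counts, libraries were also thinned to 500 member counts, leaving out 42 libraries that hold fewer. The thinned medians at 3 weeks were 45.02 (9 PBS libraries) and 36.8 (10 HDM libraries) in the airway, and 46.1 (3 PBS libraries) and 37.4 (10 HDM libraries) in the parenchyma. The leading member took a median of 6.87% in PBS airway and 13.4% in HDM airway, and 7.54% and 11.0% in the parenchyma. Without X21 and X181 the PBS airway medians were 45.02 for the thinned effective number (7 libraries) and 6.87% for the leading member. The 3-week HDM groups thus had the lowest thinned medians among the HDM groups, with ranges that overlapped those of PBS. Leaving out X21 and X181 does not remove all PBS airway libraries with usage close to HDM.CS. X1, X41 and X203 stayed in and overlapped by 80.8, 79.97 and 80.01% with an HDM.CS airway library. The bearing of this on the PBS medians was not tested.

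At 11 weeks the airway medians of PBS.AIR and HDM.AIR stood close together, but not those of every pair. The thinned effective number was 43.6 in PBS.AIR airway and 43.8 in HDM.AIR airway, and 43.3 in HDM.CS, 41.8 in HDM.AIR.DEX and 43.3 in HDM.CS.DEX airway. HDM.AIR had the narrowest unthinned range, from 44.7 to 51.4 in the airway and from 43.98 to 48.3 in the parenchyma. PBS.CS.DEX airway had the lowest thinned median among airway groups, 35.4 over 9 libraries, with a range of 26.2 to 45.2. That of PBS.AIR.DEX airway was 37.97 over 8 libraries, and that of PBS.CS airway 42.9. With dexamethasone the PBS airway medians thus lay below the HDM medians, the reverse of 3 weeks, with ranges that overlapped. In the 11-week parenchyma too few libraries of PBS.AIR (2), PBS.AIR.DEX (0) and PBS.CS.DEX (2) reached 500 counts for a comparison. PBS.CS parenchyma had 8 such libraries, with a thinned median of 39.1 and a range of 32.1 to 49.8. The HDM.CS parenchyma median was higher, at 42.5, with a range of 37.9 to 46.03. The kappa variable genes, 93 of which reach the same minimum of 1000 counts, also had lower medians under HDM at 3 weeks, with an effective number of 44.8 in PBS and 35.3 in HDM airway and 52.1 and 35.1 in the parenchyma. The PBS airway median was 44.8 without X21 and X181 as well.

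**Figure D3:**
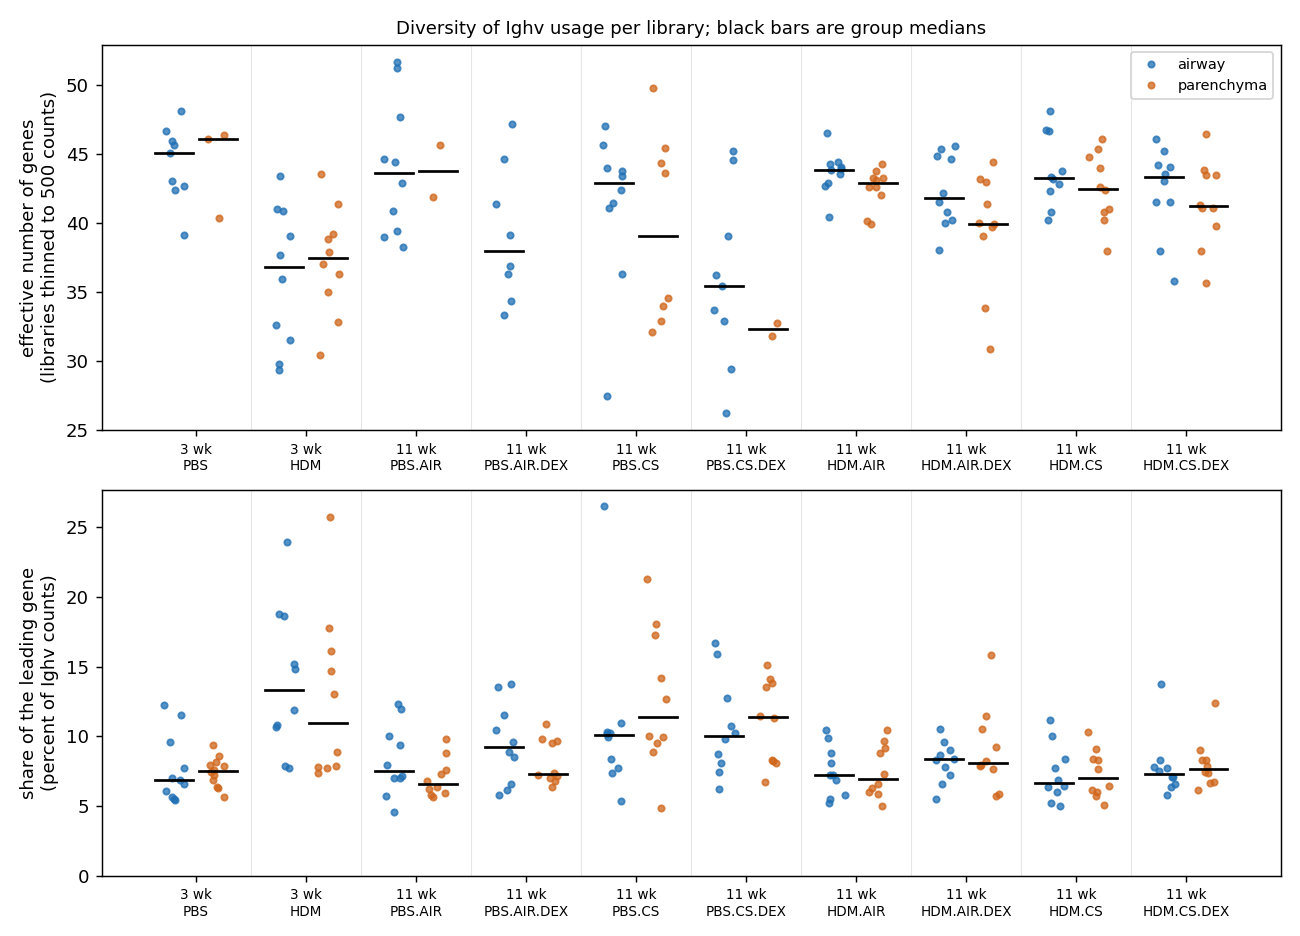
Effective number of members after thinning to 500 member counts (upper panel, y axis) and share of the leading member in percent of member counts (lower panel) per library in each group (x axis), by compartment, with group medians as bars. Libraries under 500 counts are left out of the upper panel. Medians of the 3-week HDM groups are 36.8 (airway) and 37.4 (parenchyma), below the 45.02 and 46.1 (3 libraries) of their PBS groups. HDM.AIR and PBS.AIR airway stand at 43.8 and 43.6.

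Ighv2-6 was the member most often in the lead after 3 weeks of HDM. Its share was 0.37, 1.93 and 7.03% in PBS airway and 4.58, 10.48 and 18.6% in HDM airway, and 0.621, 2.67 and 4.55% and 4.01, 7.35 and 16.2% in the parenchyma. It led 5 of 10 HDM airway and 4 of 10 HDM parenchyma libraries. In HDM.AIR airway at 11 weeks it was a smaller part, with 0.309, 1.47 and 4.64%, and in HDM.AIR.DEX airway it took 0.746, 4.58 and 9.63%. Ighv9-3 led 5 of 10 HDM.AIR and 6 of 10 HDM.CS airway libraries. Ighv9-3 had shares of 1.90, 3.65 and 7.04% in 3-week HDM airway and of 4.45, 5.42 and 10.4% in HDM.AIR airway. Ighv2-9 had group medians from 3.79% (PBS.CS.DEX airway) to 8.16% (PBS.AIR.DEX airway). As group medians, Ighv14-3 stood at 1.21% in 3-week HDM airway and at 3.09% in HDM.AIR airway, and Ighv1-82 at 0.532% in PBS.AIR and 3.18% in HDM.AIR airway.

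**Figure D4:**
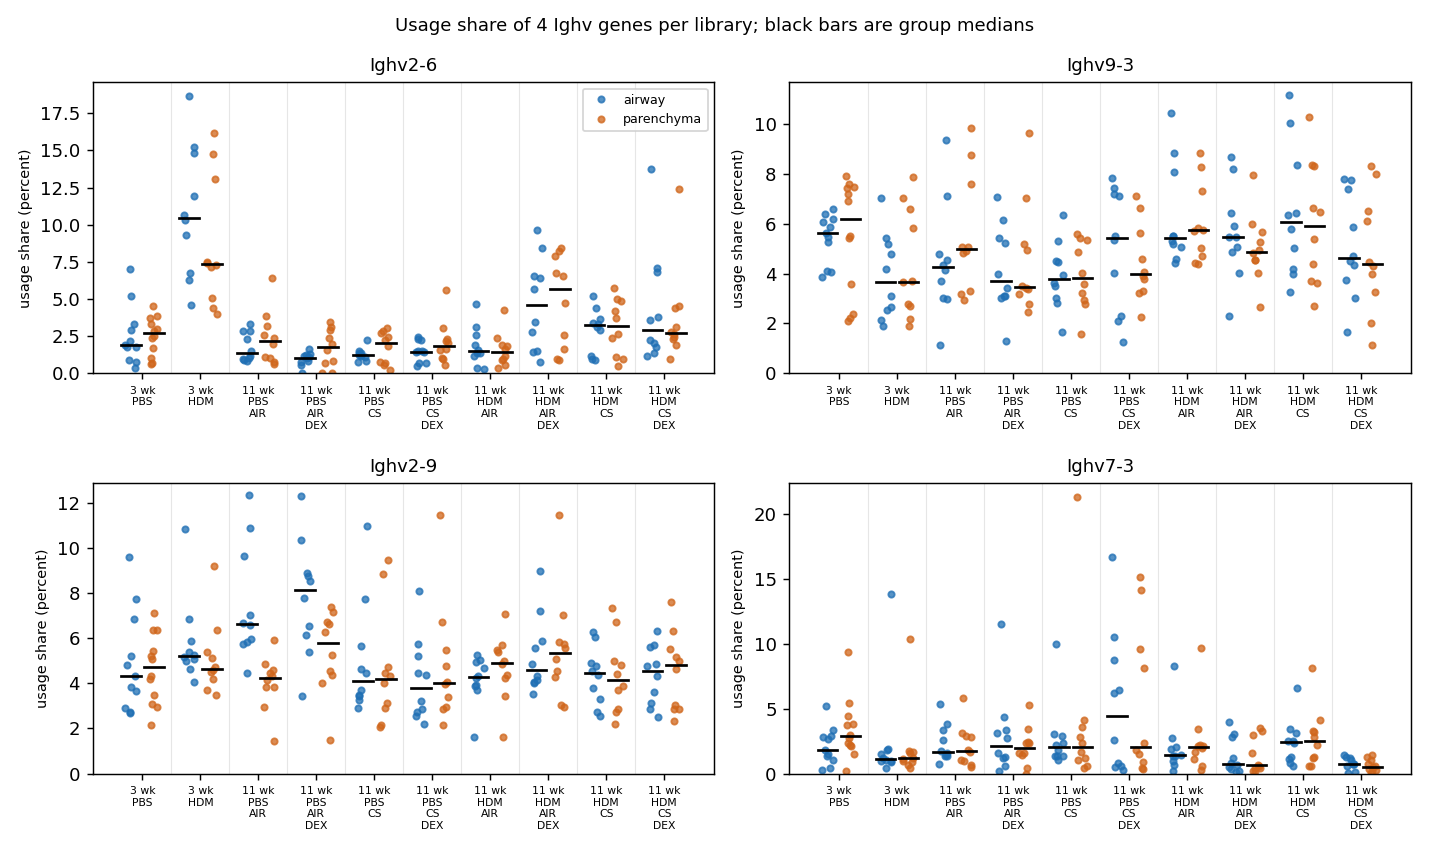
Usage share (y axis, percent of member counts) of Ighv2-6, Ighv9-3, Ighv2-9 and Ighv7-3 in each library (points, by compartment) for each treatment (x axis), with group medians as bars. The median of Ighv2-6 is highest in the 3-week HDM groups, at 10.48% (airway) and 7.35% (parenchyma), and that of Ighv2-9 in PBS.AIR.DEX airway, at 8.16%.

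A few libraries were dominated by 1 member. The 4 libraries led with at least 20% were X184 (3-week HDM parenchyma, Ighv1-84 at 25.7%), X183 (3-week HDM airway, Ighv1-84 at 23.9%), X53 (PBS.CS airway, Ighv1-14 at 26.6%) and X14 (PBS.CS parenchyma, Ighv7-3 at 21.3%). In the other libraries of those HDM groups Ighv1-84 was a minor member, since its median share was 0.358% in 3-week HDM airway and 0.34% in 3-week HDM parenchyma. All but 1 of the libraries have a neighbour by code from the other compartment of the same treatment. X54, the parenchyma library next to X53, was also led by Ighv1-14, at 18.1%, and X13, the airway library next to X14, was led by Ighv7-3 at 9.97%. Of the 5 members with the largest spread within groups, Ighv7-3 ran from 0.45 to 21.3% in PBS.CS parenchyma, Ighv1-14 from 2.34 to 26.6% in PBS.CS airway and Ighv6-6 from 0.0449 to 15.9% in HDM.AIR.DEX parenchyma. Ighv9-3 and Ighv2-9 were the others.

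The spread of shares between libraries was set beside that of counting. For members with a mean share of at least 1%, the SD of the share over libraries was divided by the SD that random counting would give at each library's depth. The median ratio over members was 16.4 in HDM.AIR airway, the highest, and 6.17 in HDM.CS.DEX parenchyma, the lowest among HDM groups. Among PBS groups it ran from 1.30 in PBS.AIR.DEX parenchyma to 5.06 in PBS.CS airway. Single members had ratios under 1 in some PBS groups, with the lowest at 0.72 in PBS.AIR.DEX parenchyma and 0.832 in PBS.AIR.DEX airway. The ratio grows with depth, and member counts were far lower in PBS libraries, so the groups are not ranked by it. Counting error covers sampling of reads only.

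Usage matched between airway and parenchyma libraries with neighbouring codes. In all but 1 pair the airway code came first. For 49 of 50 HDM airway libraries the parenchyma library with the most similar usage, out of all of them, was the neighbour. For PBS airway libraries it was 15 of 51, made up of 12 of 20 from PBS.CS with or without DEX and 3 of 31 without smoke. By cosine similarity the neighbour was closest for 61 airway libraries of all groups, and by overlap for 64. The median overlap with the neighbour was 87.97% over HDM libraries, against 69.2% for the other libraries of the same treatment. At equal depth, with libraries thinned to 2000 member counts, neighbours overlapped more than every other pair of the same treatment in 10 of 10 pairs for 3-week HDM, HDM.AIR.DEX, HDM.CS and HDM.CS.DEX, and in 9 of 10 for HDM.AIR. The same member led both libraries in 35 of 50 HDM pairs and in 17 of 51 PBS pairs. Member counts of the PBS airway libraries were 269 to 18842, against 8522 to 150993 for HDM, so depth differs along with treatment. The labels do not state that neighbouring codes mark 1 mouse.

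**Figure D5:**
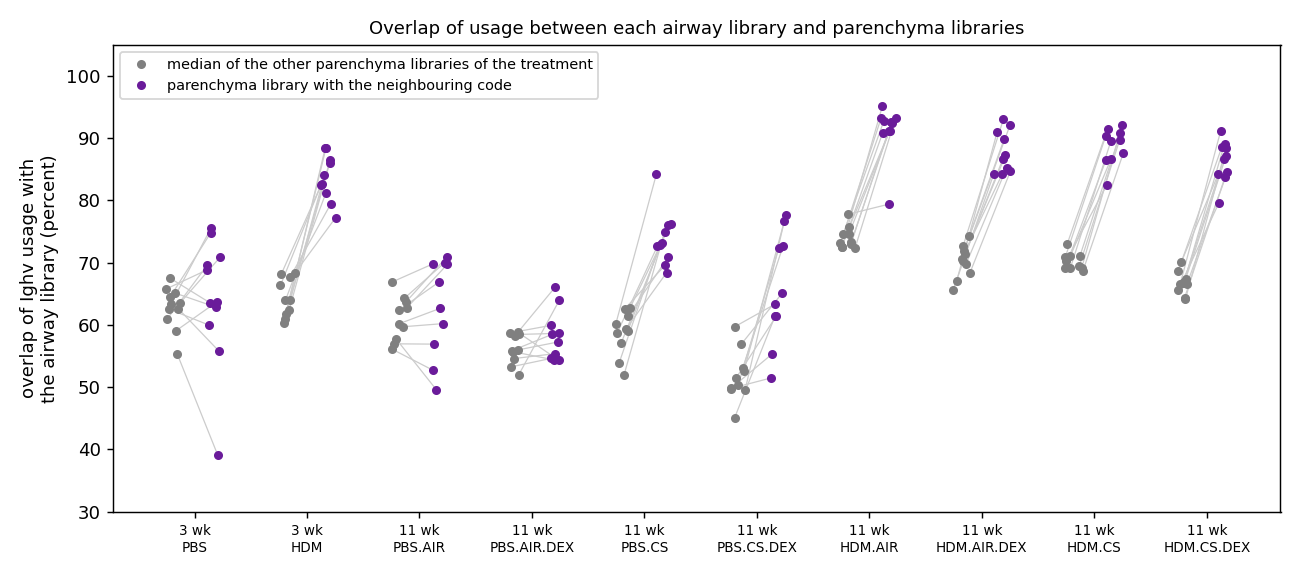
Overlap of usage (y axis, percent) between each airway library and the parenchyma library with the neighbouring code, beside its median overlap with the other parenchyma libraries of the same treatment (grey), by treatment (x axis). Lines join the values of 1 airway library, and the y axis starts at 30%. In the HDM groups neighbours overlap at a median of 87.97% against 69.2% for other libraries, and in PBS groups at 65.1% against 58.7%.

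Fixed lists of other genes were followed beside the members, chosen with earlier results of these data known. Of 15 plasma cell markers 8 were higher with HDM in each compartment at 3 weeks, and 14 (airway) and 13 (parenchyma) at 11 weeks. Of 14 B cell markers 12 and 7 were higher at 3 weeks and 13 and 12 at 11 weeks. Heavy chain constant genes were higher for 6 of 7 tested at 3 weeks and for 7 of 8 at 11 weeks, and Ighd, the constant gene of IgD on resting B cells, was the exception in each. Rag1 and Rag2, which cut the segments for joining, were too low to be tested. Of 7 lymph node stroma and venule markers 3 were higher in each compartment at 3 weeks, 3 in the airway and 4 in the parenchyma at 11 weeks and 1 was lower in the airway. The summed level of these 7 had airway medians of 358 CPM in PBS.AIR and 390.3 CPM in HDM.AIR. The summed plasma cell list ran from 997 to 5363 CPM in 3-week PBS airway, from 997 to 1824 CPM there without X21 and X181, and from 2836 to 7180 CPM in HDM airway, and from 897 to 1507 CPM in PBS.AIR airway and from 7294 to 13541 CPM in HDM.AIR airway. None of its 15 genes had a group median of 0. Of 8 germinal centre markers 5 were higher in each 3-week comparison, 6 in the 11-week airway and 5 in the 11-week parenchyma. Of 9 T cell markers 7 to 8 and of 6 macrophage markers 3 to 4 were higher in these 4 comparisons, and 1 macrophage marker was lower in the 3-week airway. Of 7 thymocyte markers 3 were tested, of which 2 were higher in each 3-week comparison, 0 in the 11-week airway and 1 in the 11-week parenchyma. Of 6 airway tissue markers 2 were lower in the 3-week airway, 1 in the 3-week parenchyma and 3 in the 11-week airway, while 2 were higher in the 11-week parenchyma. Of 6 parenchyma tissue markers 2, 4, 0 and 2 were lower in the same order of comparisons, and 1 was higher in the 11-week airway. The part of these lists in the members' change was not tested. Members per 100 counts of heavy chain constant genes had medians of 7.58 in 3-week PBS and 14.2 in HDM airway (6.31 in PBS without X21 and X181), 5.55 and 16.7 in the parenchyma, and 11.3 in PBS.AIR and 13.8 in HDM.AIR airway. The summed kappa variable level had medians of 243 (241 without X21 and X181) and 2477 CPM in 3-week PBS and HDM airway and of 172.75 and 10486 CPM in PBS.AIR and HDM.AIR airway.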

How the data were processed

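Bulk RNA-seq libraries of mouse airway and parenchyma (203) were analysed from 1 table of estimated counts per gene. The authors deposited these estimated counts without normalisation; per the labels, bcl2fastq 2.20.0.422, STAR 2.5.1b, RSEM 1.2.31 and kallisto 0.44.0 were used with mm10, and which tool made the table is not given in the sources used here. Identifiers were matched to GENCODE M21 symbols, of 43346 identifiers 42462 without the version number. Counts were rounded and fitted with limma 3.58.1 (voom, TMM factors, 1 mean per group, 43 libraries at 3 weeks and 160 at 11 weeks), keeping genes that in 9 or more libraries passed the CPM worth 10 counts at median depth (17377 and 18250 genes, 84 and 96 members). Calls needed a Benjamini-Hochberg adjusted p under 0.05 and a log2 fold change of at least 1 in size, for interactions the adjusted p alone. edgeR 4.0.16 and DESeq2 1.42.0 were alternatives. On data with 16977 genes simulated from the 3-week airway libraries alone, an HDM v PBS fit recovered 82% of 2-fold and 95% of 4-fold changes. This used the adjusted p alone, and the parenchyma and the 11-week libraries were not simulated. Usage shares, effective numbers and overlaps were computed from the rounded counts and carry no test. Thinned effective numbers are means over 20 seeded draws, and thinned overlaps come from 1 seeded draw. Named members were the 10 with the largest mean share, the 5 with the largest SD within groups, those leading a library with at least 20%, the 3 on each side of the minimum, and in each comparison those with the largest changes or smallest adjusted p. Members and lists were chosen with earlier results of these data known. Promoter and protein sequences were not used here.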

Additional observations from a re-analysis of the deposited data

Results flagged for a closer look

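Single libraries were compared with their group by the gap to the nearest library over the range of the group, at a 95% limit. Of 54 combinations of group and measure 8 had a library past the limit. Chance gives about 1 in 20 only for unrelated combinations with normally distributed values, which was not tested. The leading share and the effective number are related, and X53 was flagged for both. The count of flags is therefore not weighed against that rate. These combinations do not cover all 20 groups for every measure. X21, at 507 CPM against at most 175.2 CPM in the rest of its group, is not among the flags. Absence from the flags therefore does not mean that a library passed. For the summed level these were X65 (PBS.AIR airway, 138.96 CPM), X67 (PBS.AIR.DEX airway, 144.2 CPM), X12 (HDM.AIR.DEX parenchyma, 1516 CPM) and X126 (PBS.AIR parenchyma, 83.42 CPM). The neighbour of X12 by code, X11, also had the highest level of its group, 2030 CPM, while the neighbour of X65, X66, had the lowest of its group, 7.72 CPM. For the share of the leading member they were X53 (PBS.CS airway, Ighv1-14 at 26.57%), X199 (HDM.CS.DEX airway, Ighv2-6 at 13.76%) and X200 (HDM.CS.DEX parenchyma, Ighv2-6 at 12.43%), the last 2 being neighbours by code. For the effective number it was X53, at 29.58.

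The effect of HDM differed between conditions in limma-voom interaction tests for these named members. Ighv1-53 rose less in the airway than in the parenchyma at 3 weeks, with a difference of -2.33 on the log2 scale. It was the 1 member called of 84, against a background of 6.43%. That call was lost without X21, X126 and X181 (-2.08, adjusted p 0.084) and in 1 fit of all libraries (-2.35, adjusted p 0.13). With smoke the HDM effect was lower for Ighv5-2 (-4.34) and Ighv1-28 (-4.05) in the airway and for Ighv5-2 (-3.97) and Ighv5-1 (-2.87) in the parenchyma. These smoke interactions lean on few control counts, and the filter of 10 CPM left no interaction call in either compartment. In the parenchyma 18 of 96 members were called, near the background of 18.7%.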

How the results depend on the processing

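Of 239 alternative values for the comparisons 68 moved by more than 1.5 times, or by more than the spread between libraries, and 0 turned direction. Of 477 alternatives for named members 457 kept their call and 20 lost it. Counts of members called follow. The edgeR, DESeq2 and quality weight settings kept the main filter, with 84 members tested at 3 weeks and 96 at 11 weeks. The CPM filter of 10, no filter and 1 fit of all libraries tested other numbers of members, not given here. Counts from those settings, here and above, are therefore not to be read against 84 or 96. The shares over all genes are not given for any of these settings. Requiring a CPM of at least 10 in 9 libraries, which tests fewer genes, gave 17 and 17 for HDM at 3 weeks (airway and parenchyma), 63 and 62 for HDM.AIR v PBS.AIR, 57 and 26 for HDM.CS v PBS.CS, 21 and 4 for HDM.CS.DEX v HDM.CS, 56 for HDM.AIR.DEX v HDM.AIR parenchyma, 0 for PBS.CS v PBS.AIR airway, 0, 2, 0 and 9 for airway v parenchyma (3-week PBS, 3-week HDM, PBS.AIR and HDM.AIR), and 0 for the 3-week compartment difference and both smoke interactions. For the next settings the cause was not tested. The edgeR quasi-likelihood test gave 16 for PBS.CS v PBS.AIR airway, 1 and 7 for PBS.AIR.DEX, 9 and 8 for PBS.CS.DEX, 75, 4, 19 and 0 for airway v parenchyma in the order above, 14 for the compartment difference and 54 for the parenchyma interaction. DESeq2 gave 22 and 7 for PBS.CS v PBS.AIR, 47 for HDM.CS v HDM.AIR airway, 1 and 35 for PBS.AIR.DEX, 15 and 20 for PBS.CS.DEX, 19 for HDM.CS.DEX airway, 82, 2, 30 and 0 for airway v parenchyma, 30 for the compartment difference and 64 for the parenchyma interaction. DESeq2 size factors gave 1 for PBS.AIR.DEX airway. Without a filter the counts were 1 and 2 for PBS.CS.DEX, 2 for PBS.AIR.DEX parenchyma, 11 for HDM.CS.DEX parenchyma, 32 and 4 for airway v parenchyma at 3 weeks, 2 for HDM.AIR and 30 for the parenchyma interaction. All libraries in 1 fit gave 0 for PBS.CS v PBS.AIR airway, 4 and 3 for airway v parenchyma at 3 weeks and 0 for the compartment difference. Sample quality weights gave 0 for PBS.CS v PBS.AIR airway, 59 and 41 for HDM.CS.DEX, 1 for PBS.AIR.DEX parenchyma, 2 for PBS.CS.DEX parenchyma, 2 and 4 for airway v parenchyma at 3 weeks and 13 for HDM.AIR. Leaving out X21, X126 and X181, chosen after seeing the data, gave 1 for 3-week PBS airway v parenchyma and 0 for the compartment difference. Thinning moved the HDM minus PBS difference in median effective number in the 3-week parenchyma to -8.63, with 3 PBS libraries left. Each code in the labels is used once, so groups share no replicate number. Neighbouring codes as a replicate block, chosen after seeing the data, gave 23 for 3-week PBS and 10 for HDM.AIR airway v parenchyma.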

Other observations

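The lambda variable genes, of which 3 reached 1000 summed counts, had median levels of 17.3 and 144.98 CPM in 3-week PBS and HDM airway and of 15.5 and 645 CPM in PBS.AIR and HDM.AIR airway. Ighv7-3 had a higher median share in PBS.CS.DEX airway than in any other group, and it led 3 of 10 PBS.CS.DEX parenchyma libraries. Among the 3-week PBS airway libraries whose usage was closest to an HDM.CS airway library, the partner's code was 16 higher in 3 libraries and 24 lower in 4. The cause was not tested.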
